A study of Homo sapiens with 6 samples.

Results

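The levels of the transcription factor MYC and of 9 genes tied to it, NPM1, NCL, FBL, NOP56, NOP58, DKC1, POLR1B, ODC1 and CAD, were described in a liver cancer cell line with and without the RNA helicase DDX17. The 10 genes were taken by name from a deposited table of 58302 genes, and each name matched 1 row. The table gives FPKM, the fragments of a gene scaled to its length and to the fragments of the whole library. The cells were MHCC97H, an established human hepatocellular carcinoma line of high metastatic capacity. One group was a non-target control line and the other a DDX17 KO line, both made in MHCC97H with CRISPR/Cas9. Both were grown in DMEM with fetal bovine serum and antibiotics, and 3 libraries of total RNA were sequenced from each. Whether either line was a single clone, and how long the cells were grown, is not given in the sources used here. Nothing in the labels says that the 3 libraries of a group came from separate cultures, so the p-values measure only the spread between these libraries, which may be technical.

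MYC binds DNA with its partner MAX at the E-box, a short motif of the letters CACGTG, and raises transcription of genes for growth. A large share of those genes serve the nucleolus, where RNA polymerase I copies ribosomal RNA, small nucleolar RNPs modify it and assembly factors fold it into ribosomal subunits. In liver, MYC is a well known driver of tumours, and DDX17 is a DEAD-box helicase that acts in splicing and transcription. Within the nucleolus, FBL, NOP56 and NOP58 sit in the box C/D particle, which adds methyl groups to ribosomal RNA, and DKC1 is the enzyme of the box H/ACA particle, which makes pseudouridine. POLR1B is the second largest subunit of RNA polymerase I, and NPM1 and NCL are abundant nucleolar proteins that help to assemble ribosomes. ODC1 and CAD are enzymes outside the nucleolus, which start the synthesis of polyamines and of pyrimidines, and both are classical MYC targets.

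Promoter windows were searched for the E-box close to annotated starts. They were taken from RefSeq (GRCh38.p14), from 250 bases before to 50 bases after each annotated start. There were 11 windows for 8 of the 10 genes, and none for MYC or NOP58. The letters CACGTG, which read the same on both strands, stood in 2 of the 11 windows, against 2548 of all 35116 windows (7.26%). These 2 are shown because they bear the motif, in capitals, the first at chr19:39846330-39846629 and the second at chr2:10447963-10448262, both on the minus strand. The FBL window holds the motif 1 time, with its first base at position 7 from the start. The ODC1 window, which belongs to one of its annotated starts, holds it 2 times, at positions -28 and 6. A match describes the letters only and is no measurement of MYC binding. An E-box just outside a window would be missed, so a window without the motif does not mean a gene without one.
FBL promoter: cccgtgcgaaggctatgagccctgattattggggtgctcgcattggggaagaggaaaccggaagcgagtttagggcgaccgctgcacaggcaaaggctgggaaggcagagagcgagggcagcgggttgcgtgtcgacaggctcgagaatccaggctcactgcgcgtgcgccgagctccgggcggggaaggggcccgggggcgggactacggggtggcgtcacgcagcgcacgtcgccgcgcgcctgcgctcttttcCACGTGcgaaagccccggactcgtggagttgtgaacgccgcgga
ODC1 promoter: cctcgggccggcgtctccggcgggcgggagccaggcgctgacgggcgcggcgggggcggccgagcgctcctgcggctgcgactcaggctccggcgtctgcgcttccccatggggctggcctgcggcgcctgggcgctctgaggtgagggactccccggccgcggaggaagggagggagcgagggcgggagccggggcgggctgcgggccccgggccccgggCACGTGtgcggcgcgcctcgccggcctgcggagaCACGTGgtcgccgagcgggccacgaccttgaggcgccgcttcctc

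NOP56, NOP58, NCL, DKC1 and ODC1 also host small RNAs in their introns, among them guide RNAs of the particles that these proteins build. The 4 printed here are ones whose rows are described further on, read from GENCODE release 29 on hg38. Capitals mark the C box (TGATGA) and D box (CTGA) of the box C/D RNAs, and the ACA box of SNORA51. SNORD57 lies at chr20:2656939-2657010, SNORD110 at chr20:2654212-2654286 and SNORA51 at chr20:2655067-2655198, all 3 inside NOP56. SNORD11 lies at chr2:202293051-202293134, inside NOP58.
SNORD57: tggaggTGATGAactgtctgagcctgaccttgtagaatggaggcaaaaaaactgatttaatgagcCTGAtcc
SNORD110: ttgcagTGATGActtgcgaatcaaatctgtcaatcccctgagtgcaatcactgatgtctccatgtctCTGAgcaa
SNORA51: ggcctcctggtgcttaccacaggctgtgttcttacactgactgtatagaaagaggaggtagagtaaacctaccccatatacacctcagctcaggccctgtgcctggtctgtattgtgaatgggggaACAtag
SNORD11: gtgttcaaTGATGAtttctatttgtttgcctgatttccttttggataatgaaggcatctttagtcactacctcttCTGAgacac

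The libraries differ in ways that touch these genes. Estimated fragments ranged from 12340000 to 14550000 in the control libraries and from 5350000 to 10620000 in the DDX17 KO libraries, so every DDX17 KO library was the shallower. DDX17 itself stood at 41.4 to 45.7 FPKM in the controls and at 22.4, 7.64 and 19.1 FPKM in DDX17 KO replicates 1, 2 and 3, on the log2 scale -1.48 (limma adjusted p = 0.282) and -1.04 without DDX17 KO replicate 2 (limma adjusted p = 0.0334). DDX17 RNA thus remained in every library of the knockout line. The libraries numbered 2 stood apart from the others in both groups, by the GC content of genes, as described further on. Of 10 hepatocyte markers, ALB, AFP and HNF4A among them, none reached 1 FPKM in any library, whereas the epithelial keratins KRT8 and KRT18 were at 93.9 to 239 FPKM. Summed red cell markers were at 54.0 to 69.6 FPKM in the controls and at 0.0211 to 0.673 FPKM in the DDX17 KO libraries, and summed fibroblast markers at 36.8 to 44.5 and 46.4 to 88.1 FPKM. Within that sum COL3A1 was at 20.5 to 25.6 FPKM in the controls and 27.2 to 79.8 FPKM in DDX17 KO, COL1A1 at 12.4 to 15.7 and 6.11 to 11.5 FPKM, and LUM at 3.20 to 4.09 and 1.2 to 15.3 FPKM. ALAS2 and DCN, a defining marker of each, were at most at 0.206 and 0.0632 FPKM, EPCAM and CDH1 of the epithelial list at 0.128 and 0.116 FPKM, and CD3E of the immune list was at 0. The immune sum, nearly all CD68, was at 1.27 to 1.64 FPKM in the controls and 2.07 to 3.30 FPKM in DDX17 KO, higher without overlap. Their part in the values of the 10 genes was not tested.

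None of the 10 genes passed the test between the groups. With limma on log2(FPKM + 1) and Benjamini-Hochberg adjustment over 15620 genes, 0 of the 10 had an adjusted p below 0.05. Over all tested genes 6 did, all of them lower in DDX17 KO, which is 0.0384%. At an unadjusted p below 0.05 limma gave 1 of the 10, FBL, against 13.5% of all tested genes. The 10 had a median difference of 0.047 on the log2 scale, all tested genes one of -0.026 and the protein-coding genes one of -0.091. FBL was also the 1 gene whose groups did not overlap, against 20.7% of all tested genes. FPKM is relative to the library, so a change in RNA per cell would not show, and in bulk RNA fewer expressing cells and less RNA per cell cannot be told apart. With 3 against 3 libraries the exact permutation test over samples cannot go below 0.1.

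**Figure D1:**
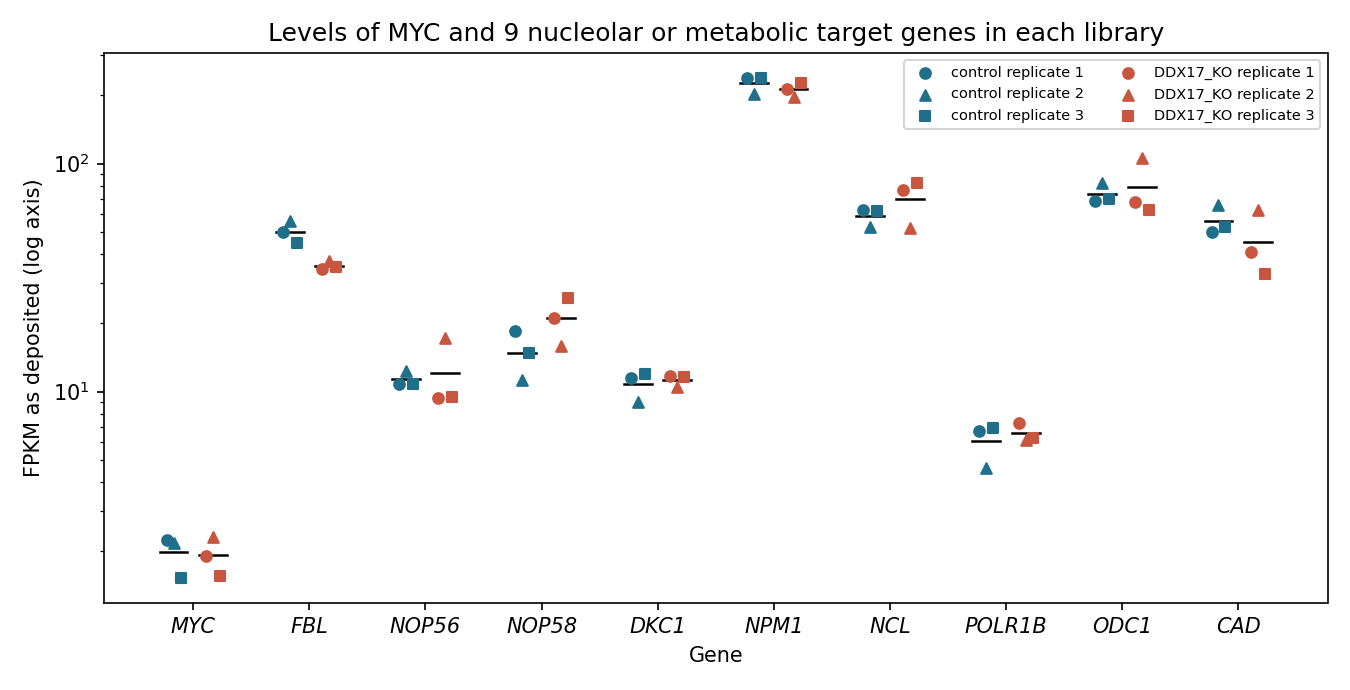
FPKM of the 10 genes in each of the 6 libraries, on a log axis, with control libraries in blue and DDX17 KO libraries in red. Circles, triangles and squares are the libraries numbered 1, 2 and 3, and black bars are group means; FBL is the 1 gene whose red points all lie below the blue ones.

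Before the levels of different genes are set side by side, their length scale matters. Multiplying FPKM by the fragments of the library and by a gene's length should give a whole number of fragments. For 16044 of the 17621 genes with several annotated transcripts (91.1%), this held within 0.05 in all 6 libraries when the length was the sum of all distinct exon records of the gene in GENCODE release 29. With the merged exon length, which counts each base 1 time, it held for 1.99%, and with the longest transcript for 1.15%. A gene with many overlapping exon records is therefore divided by more bases than its RNA can have. For MYC the divisor was 9431 bases against 3001 merged bases, a factor of 3.14, for POLR1B the factor was 2.71 and for NOP56 2.65. ODC1, with 1.27, and CAD, with 1.38, were the least affected of the 10. The factor is the same in every library, so it leaves the FPKM ratio of DDX17 KO to control of a gene untouched but sets the order of genes. Fold changes of log2(FPKM + 1) are not free of it, since the added 1 weighs more where a larger divisor lowers FPKM. The merged length can itself exceed every single transcript, and unequally so. For NPM1 it was 3828 bases against 1758 in the longest transcript, and for ODC1 2968 against 2653. An order of genes thus holds only for the length scale used.

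**Figure D2:**
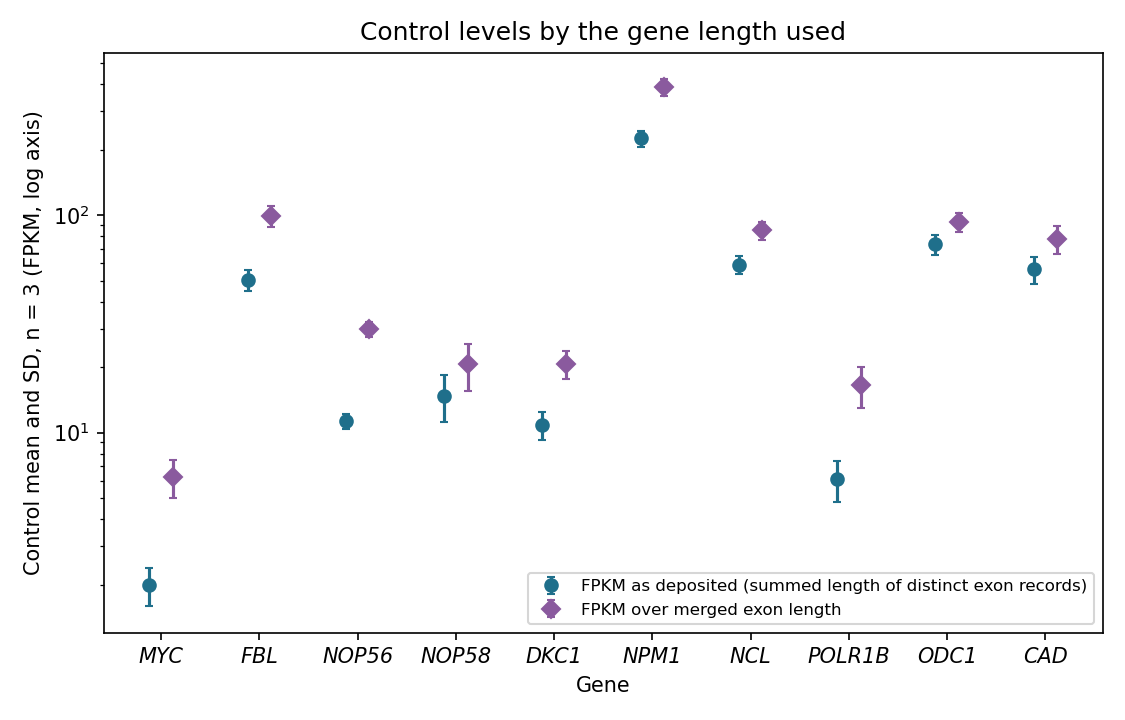
Mean control level of the 10 genes, with bars for the SD of 3 libraries, as deposited (circles) and over merged exon length (diamonds), in FPKM on a log axis. FBL, at 50.3 and 98.9 FPKM, ranks below ODC1, NCL and CAD on the first scale and above them on the second, and MYC, at 1.98 and 6.23 FPKM, is the lowest on both scales.

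On the merged exon scale, NPM1 was the most abundant of the 10 in control cells, at 387 ± 33.7 FPKM (SD, n = 3), and its range lay above every other. FBL at 98.9, ODC1 at 92.9, NCL at 85.2 and CAD at 77.7 FPKM followed, and neighbours in that order overlapped in range. NOP56, at 30.0 FPKM, stood apart from the genes on either side. DKC1 at 20.7, NOP58 at 20.6 and POLR1B at 16.5 FPKM overlapped with their neighbours again, and MYC closed the order at 6.23 ± 1.24 FPKM. On this scale box C/D proteins thus spanned the range from FBL to NOP58 in the same cells. On the deposited scale the order ran NPM1, ODC1, NCL, CAD, FBL, NOP58, NOP56, DKC1, POLR1B and MYC.

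MYC (ENSG00000136997, hg38 chromosome 8, 127735434 to 127741434, plus strand) was at 2.24, 2.17 and 1.53 FPKM in control replicates 1, 2 and 3. In DDX17 KO replicates 1, 2 and 3 it was at 1.90, 2.30 and 1.55 FPKM. The groups overlapped over nearly their whole range, with the library numbered 3 the lowest in each. The means were 1.98 ± 0.39 and 1.91 ± 0.37 FPKM (SD, n = 3), a log2 fold change of -0.032 (SE 0.19, 95% interval -0.47 to 0.40, limma adjusted p = 0.937, exact permutation p = 1). These levels rest on 261, 285 and 210 fragments in the controls and on 190, 116 and 120 in the DDX17 KO libraries. For DDX17 KO replicate 2, the 116 fragments allow 95.9 to 139 by an exact 95% Poisson interval, or 1.90 to 2.76 FPKM, for counting error only. The spread between libraries, a coefficient of variation of 19.8% in controls and 19.6% in DDX17 KO, exceeded the 6.30% and 8.39% that counting gives. At this low level the 1 added before the logarithm narrows the SE and the 95% interval given above. With 0.01 added in its place, the log2 fold change of MYC was -0.047 (SE 0.27). The sign of the MYC difference was not fixed by these data. It turned to 0.060 without DDX17 KO replicate 3, to 0.033 without control replicate 1, to 0.017 without control replicate 2 and to 0.23 after a correction for GC content and length.

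The box C/D core proteins differed in the sign of their values. FBL, the methyltransferase of the particle (ENSG00000105202, chromosome 19, 39834458 to 39846414, minus strand), was at 50.1, 56.1 and 44.7 FPKM in the controls. In DDX17 KO it was at 34.6, 37.5 and 35.0 FPKM. Every DDX17 KO library lay below every control, as it did for 12.6% of all tested genes. The means were 50.3 ± 5.70 and 35.7 ± 1.54 FPKM (SD, n = 3), a ratio of 0.71 and a log2 fold change of -0.48 (SE 0.18, 95% interval -0.89 to -0.06). The unadjusted limma p was 0.0292, the limma adjusted p 0.369 and the exact permutation p 0.1, the smallest that it allows. The DDX17 KO libraries were also the tightest of the 10 genes, with a coefficient of variation of 4.32%. FBL was below 0 in 21 of 21 alternative settings, with a lowest limma adjusted p of 0.0671. Several of these settings change only the test or the genes tested, so they could not turn the sign. The GC and length correction moved FBL to -0.24, or to -0.12 without DDX17 KO replicate 2.

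NOP58 (ENSG00000055044, chromosome 2, 202265716 to 202303666, plus strand), a scaffold that binds the guide RNA, was at 18.4, 11.2 and 14.7 FPKM in the controls and at 21.1, 15.9 and 25.7 FPKM in DDX17 KO. The groups overlapped through control replicate 1 and DDX17 KO replicate 2, and in both groups the library numbered 2 was the lowest. The means were 14.8 ± 3.58 and 20.9 ± 4.92 FPKM (SD, n = 3), a ratio of 1.42 and a log2 fold change of 0.48 (SE 0.25, limma adjusted p = 0.405, exact permutation p = 0.2). NOP58 was above 0 in 21 of 21 alternatives, several of which could not turn the sign, with a lowest limma adjusted p of 0.101. The value was 0.31 without control replicate 2 and 0.27 after the GC and length correction. NOP56, its paralogue in the particle (ENSG00000101361, chromosome 20, 2652145 to 2658393, plus strand), was at 10.8, 12.4 and 10.8 FPKM in the controls and at 9.41, 17.2 and 9.50 FPKM in DDX17 KO. Here DDX17 KO replicate 2 alone lay above all controls, while DDX17 KO replicates 1 and 3 lay below them. The log2 fold change of NOP56 was 0.033 (SE 0.25, limma adjusted p = 0.952), and it became -0.23 without DDX17 KO replicate 2.

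DKC1 (ENSG00000130826, chromosome X, 154762742 to 154777689, plus strand) differed little in mean between the groups. Its values were 11.5, 8.97 and 12 FPKM in the controls and 11.8, 10.4 and 11.6 FPKM in DDX17 KO, and the groups overlapped. The log2 fold change was 0.062 (SE 0.18, 95% interval -0.36 to 0.49, limma adjusted p = 0.873). POLR1B (ENSG00000125630, chromosome 2, 112541915 to 112577150, plus strand) was at 6.75, 4.61 and 6.91 FPKM in the controls and at 7.32, 6.17 and 6.24 FPKM in DDX17 KO. Its control replicate 2 was the lowest of the 6, and the groups overlapped. The log2 fold change was 0.11 (SE 0.20, 95% interval -0.35 to 0.58, limma adjusted p = 0.789). Without both libraries numbered 2 the differences of DKC1 and POLR1B were -0.0070 and -0.012.

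NPM1 (ENSG00000181163, chromosome 5, 171387116 to 171411137, plus strand) was at 236, 203 and 237 FPKM in the controls and at 212, 196 and 226 FPKM in DDX17 KO, with the library numbered 2 the lowest in each group. The groups overlapped, at 225 ± 19.6 and 211 ± 15.3 FPKM (SD, n = 3), with a log2 fold change of -0.092 (SE 0.18, 95% interval -0.51 to 0.32, limma adjusted p = 0.803). NPM1 has many processed copies in the genome, which can share its reads. The table lists 45 rows named as NPM1 pseudogenes, of which 24 were above 0 in at least 1 library and 6 averaged 0.5 FPKM or more. The copy NPM1P27 (chromosome 5, 93682838 to 93683667, minus strand) was at 398, 356 and 417 FPKM in the controls and at 387, 419 and 449 FPKM in DDX17 KO, which overlapped NPM1 on the merged exon scale at 348 to 408 and 336 to 389 FPKM. The deposited divisor of NPM1, 1.72 times its merged length, puts NPM1 lower. Its merged length of 3828 bases also exceeds its longest annotated transcript, of 1758 bases. A shorter divisor would put NPM1 higher, so the overlap depends on the length used. NPM1P27 has a length of 830 bases, and it held 4080, 4109 and 5038 fragments in the controls, against 19158, 18540 and 22704 for NPM1.

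The share on the copies was higher in every DDX17 KO library than in every control. Of all fragments on NPM1 and its copies, pseudogenes held 21.4%, 21.8% and 22% in the controls and 23.4%, 26.1% and 24.7% in DDX17 KO. NPM1P6 was at 48.9, 37.3 and 52.1 FPKM in the controls and at 68.2, 68.4 and 68.3 FPKM in DDX17 KO, or 0.57 on the log2 scale (limma adjusted p = 0.357). NPM1P18 was at 3.65, 2.75 and 4.79 against 6.56, 7.40 and 7.99 FPKM, or 0.83 on the log2 scale (limma adjusted p = 0.283). In both copies every DDX17 KO library lay above every control, as it did for 8.09% of all tested genes, and neither passed the threshold. NPM1P39 lay the other way, at 48.3 ± 3.46 and 44.3 ± 4.33 FPKM (SD, n = 3) with overlap, and NPM1P27 had a log2 fold change of 0.10. It is unknown how reads that fit several copies were assigned. The level of NPM1 is therefore uncertain, and the share on its copies does not measure by how much.

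NCL (ENSG00000115053, chromosome 2, 231453531 to 231483641, minus strand) was at 62.4, 52.4 and 62.2 FPKM in the controls and at 76.2, 52.2 and 82.1 FPKM in DDX17 KO. DDX17 KO replicates 1 and 3 lay above all controls, while DDX17 KO replicate 2 lay just below the lowest of them. The means were 59 ± 5.68 and 70.2 ± 15.9 FPKM (SD, n = 3), with a log2 fold change of 0.22 (SE 0.23, 95% interval -0.30 to 0.75, limma adjusted p = 0.614). Single libraries moved it both ways, to 0.42 without DDX17 KO replicate 2 (limma adjusted p = 0.109), 0.099 without DDX17 KO replicate 3 (limma adjusted p = 0.899) and 0.14 without control replicate 2.

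The metabolic targets showed the opposite placing of that library. CAD (ENSG00000084774, chromosome 2, 27217390 to 27243943, plus strand), which carries out the first steps of pyrimidine synthesis, was at 50.3, 65.5 and 52.8 FPKM in the controls and at 40.8, 62.8 and 32.9 FPKM in DDX17 KO. DDX17 KO replicates 1 and 3 lay below all controls and replicate 2 within their range. The log2 fold change was -0.34 (SE 0.27, 95% interval -0.96 to 0.28, limma adjusted p = 0.524). It was -0.60 without DDX17 KO replicate 2 (limma adjusted p = 0.0836), -0.14 without DDX17 KO replicate 3 (limma adjusted p = 0.873), -0.23 without control replicate 2 and -0.096 after the GC and length correction. ODC1, the first enzyme of polyamine synthesis (ENSG00000115758, chromosome 2, 10439968 to 10448504, minus strand), was at 68.2, 82.2 and 69.9 FPKM in the controls and at 67.6, 106 and 62.3 FPKM in DDX17 KO. DDX17 KO replicate 2 was the highest of the 6 libraries and replicates 1 and 3 the lowest. The log2 fold change of ODC1 was 0.062 (SE 0.24, limma adjusted p = 0.906), and it became -0.17 without DDX17 KO replicate 2.

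**Figure D3:**
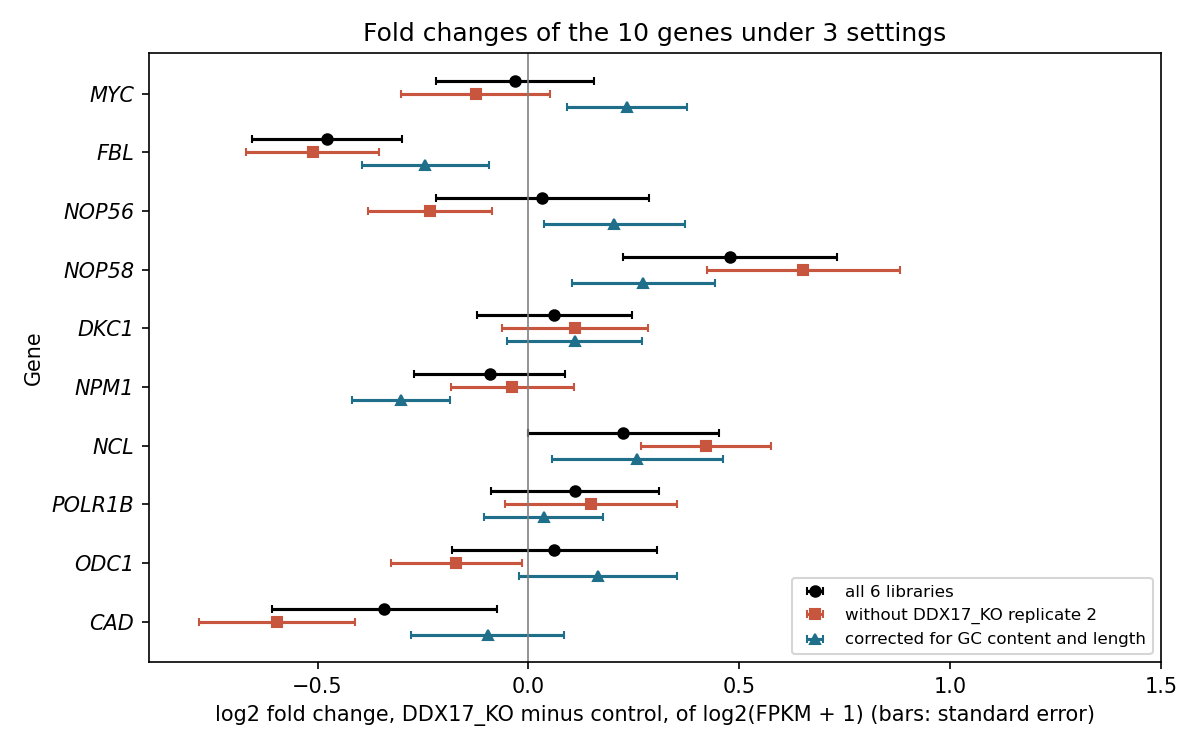
Log2 fold change of DDX17 KO against control for the 10 genes with all 6 libraries, without DDX17 KO replicate 2 and after the GC and length correction, with bars for the standard error. NCL and NOP58 stay above 0 and FBL and CAD below 0 in all 3, while ODC1 and NOP56 lie at 0.062 and 0.033 with all libraries and at -0.17 and -0.23 without DDX17 KO replicate 2.

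The libraries numbered 2 sorted the 10 genes by base composition. For each gene, the log2 level in the library numbered 2 was set against the mean of the libraries numbered 1 and 3 of the same group. The 5 genes of lower GC content, NPM1, NOP58, POLR1B, NCL and DKC1 (41.7% to 48.3%), were lower in that library in both groups. The 5 of higher GC content, ODC1, NOP56, FBL, MYC and CAD (49.9% to 57.7%), were higher in both. For NOP58 the difference was -0.52 in the control group and -0.52 in the DDX17 KO group. For CAD it was 0.34 and 0.76, for ODC1 0.25 and 0.70, and for NOP56 0.18 and 0.80. Over the 10 genes the Spearman correlation with GC content was 0.758 in each group, and over all 15564 tested genes with a GC value it was 0.59 in the control and 0.534 in the DDX17 KO group. These correlations are across genes that share the same libraries, and genes are not independent replicates. The pattern is thus one of all genes, not of these 10.

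**Figure D4:**
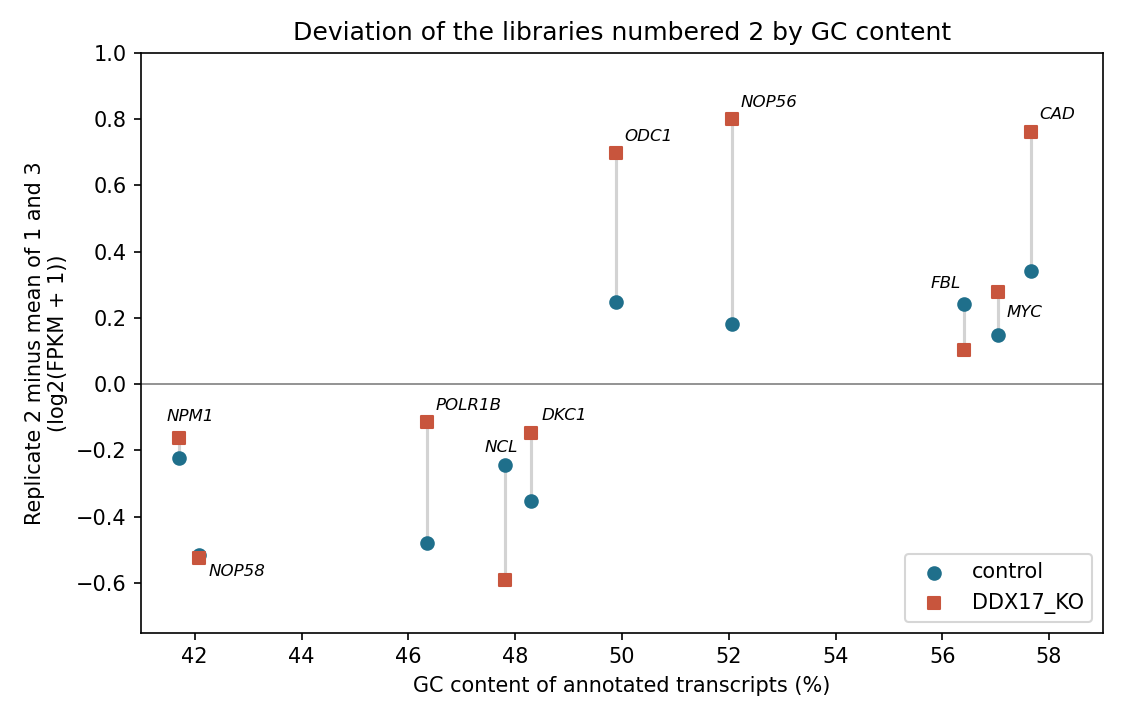
Log2 level in the library numbered 2 minus the mean of the libraries numbered 1 and 3, against the GC content of the gene in percent, for the control group in blue and the DDX17 KO group in red. The 5 genes up to 48.3% GC lie below 0 and the 5 genes from 49.9% lie above 0 in both groups.

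GC content also ran with the difference between the groups. Across the 10 genes, the Spearman correlation of the log2 fold change with GC content was -0.6, and across all tested genes it was -0.523. Leaving out DDX17 KO replicate 2 gave -0.794 and -0.611, and leaving out both libraries numbered 2 gave -0.612 and -0.545. After the GC and length correction the 2 values were -0.0667 and -0.00455, which is what that correction is built to do. In that fit NPM1 was at -0.30, FBL at -0.24 and CAD at -0.096, and NOP58 at 0.27, NCL at 0.26, MYC at 0.23 and NOP56 at 0.20. None of the 10 had a limma adjusted p below 0.05 there. The part of GC content in the group differences was not tested.

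Without DDX17 KO replicate 2, limma called 572 of the tested genes (3.66%), and still 0 of the 10. At an unadjusted p below 0.05 that fit gave 4 of the 10, FBL and CAD lower and NCL and NOP58 higher, against 35.8% of all tested genes. With the replicate number as a block, limma gave FBL and NOP58 at an unadjusted p below 0.05, against 28.6% of all tested genes, and none at the adjusted threshold, which 0.0256% of all tested genes passed. Without both libraries numbered 2 it gave the same 4 as without DDX17 KO replicate 2, against 34.1%.

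The wider pathways were described with 7 lists of 187 genes from textbook knowledge, of which 175 were tested. None of the 175 passed the limma adjusted threshold. Groups did not overlap in 6 with DDX17 KO higher and in 12 with DDX17 KO lower, against 8.09% and 12.6% of all tested genes. Of the 175, 66 lay above 0 and 109 below. Their log2 median was -0.10, against -0.026 over all tested genes. Over the protein-coding genes, to which the listed genes belong, it was -0.091, close to that of the lists. The list of other MYC targets (32 tested) had a median of -0.20, with 24 of 32 below 0 and 1 gene higher and 3 lower without overlap. After the GC and length correction its median was -0.045. The list holds genes that MYC represses beside genes that it raises, so its median gives no direction of MYC activity. CDKN2B, a cell cycle inhibitor that MYC represses, was at 8.37, 8.36 and 8.65 FPKM in the controls and at 3.22, 4 and 3.07 FPKM in DDX17 KO. Its log2 fold change was -1.10 (SE 0.17, limma adjusted p = 0.104), the groups stood far apart, and it passed the threshold in 3 of 21 alternatives, those without DDX17 KO replicate 2 (limma adjusted p = 0.0264 with the other 5 libraries). E2F1, a transcription factor of S phase entry, was at 18.5, 26.9 and 20.9 FPKM in the controls and at 12.5, 13.4 and 12.4 FPKM in DDX17 KO, or -0.73 on the log2 scale (limma adjusted p = 0.305). The GC and length correction moved E2F1 to -0.47 (limma adjusted p = 0.224). The genes with the highest deposited FPKM in that list, the glycolytic enzyme ENO1 with 643 ± 99.7 and 502 ± 110 FPKM and the amino acid transporter SLC7A5 with 459 ± 73.8 and 429 ± 128 FPKM (SD, n = 3), overlapped between the groups.

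Calls among the 175 appeared where DDX17 KO replicate 2 was left out. Without it limma called 7 of them (4%), 2 higher and 5 lower, against 3.66% of all tested genes, 1.95% higher and 1.72% lower. The 2 higher were MGA and the ubiquitin ligase MYCBP2, and the 5 lower were NOP10, BOP1, NOC4L, ATP13A2 and CDKN2B. Without both libraries numbered 2 it called 29 (16.6%), 13 higher with a median GC content of 41.7% and 16 lower with 57.0%. Over all tested genes that fit called 8.81%, which split in the same way by GC content: 860 were higher (5.51%), with a median of 41.1%, and 516 lower (3.3%), with 57.7%.

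The list medians also moved with the processing. After the GC and length correction they were -0.036 for polyamine genes, -0.11 for nucleotide synthesis, -0.11 for snoRNP proteins, -0.0064 for RNA polymerase I, 0.022 for ribosome assembly and 0.087 for the MYC network. Without DDX17 KO replicate 2 they were -0.41 for other MYC targets, -0.37 for polyamine genes, -0.27 for nucleotide synthesis and -0.15 for ribosome assembly. In that fit they were -0.11 for RNA polymerase I, -0.071 for snoRNP proteins and -0.061 for the MYC network. With both changes together the polyamine median was -0.017.

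Among 21 tested genes of the MYC network, its partners, antagonists and cofactors, the median was -0.047. MGA, a MAX partner that represses E-box genes, was at 4.10, 2.29 and 3.08 FPKM in the controls and at 11.3, 4.55 and 11.0 FPKM in DDX17 KO. Every DDX17 KO library was higher, with a log2 fold change of 1.19 (SE 0.34, limma adjusted p = 0.318), and replicate 2 was again the lowest in both groups. Without DDX17 KO replicate 2 the value was 1.57, with a limma adjusted p of 0.0303. After the GC and length correction of all 6 libraries it was 0.90, with a limma adjusted p of 0.162. The ubiquitin ligase HUWE1, at 89.0 ± 25.6 and 104 ± 43.2 FPKM, and the chromatin cofactor WDR5, at 26.5 ± 3.24 and 21.2 ± 6.54 FPKM (SD, n = 3), overlapped between the groups.

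The partners of FBL, NOP56, NOP58 and DKC1 in the snoRNP list (15 tested) had a median of -0.039, and in 0 of the 15 did the groups stand apart without overlap, against 20.7% of all tested genes. NOP10, a small H/ACA protein, was at 43.2, 56.1 and 49.4 FPKM in the controls and at 23.4, 77.0 and 23.9 FPKM in DDX17 KO. Its DDX17 KO replicate 2 lay above all controls and the other 2 below them, and without it the log2 fold change was -1.03, with a limma adjusted p of 0.0361. RUVBL2, an ATPase of snoRNP assembly, was at 36.3 ± 4.83 and 27.7 ± 6.22 FPKM (SD, n = 3) with overlap. For RNA polymerase I (14 tested) the median was 0.00033, with 7 genes above and 7 below 0. The subunit POLR1E, at 22.3 ± 1.5 and 22.5 ± 4.77 FPKM, and the ribosomal DNA activator UBTF, at 15.8 ± 2.27 and 16.0 ± 5.81 FPKM (SD, n = 3), overlapped.

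Of 59 tested ribosome assembly factors, 27 lay above and 32 below 0, with a median of -0.074. MPHOSPH10, of the U3 particle, was at 5.20 ± 1.28 and 8.30 ± 1.99 FPKM, higher without overlap. RRP1, at 11.8 ± 2.04 and 8.65 ± 1.11 FPKM, and the nucleolar GTPase GNL3L, at 69.3 ± 4.96 and 53.9 ± 5.12 FPKM, were lower without overlap (SD, n = 3 each). PA2G4, at 84.8 ± 8.34 and 73.3 ± 13.1 FPKM, overlapped. Of the 59, 1 was higher and 4 were lower without overlap, against 8.09% and 12.6% of all tested genes. The limma adjusted p of the 3 non-overlapping genes named here lay between 0.369 and 0.391, so none of these passed.

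Around ODC1, 13 tested polyamine genes had a median of -0.27, with 9 below 0, which the GC and length correction took to -0.036. SMS, which makes spermine, was at 150 ± 7.92 and 123 ± 17.2 FPKM, and ARG2, an arginase, at 6.91 ± 0.56 and 5.08 ± 1.65 FPKM (SD, n = 3), both lower without overlap. SRM, which makes spermidine, was at 54.0 ± 6.69 and 43.9 ± 12.6 FPKM with overlap. Around CAD, 21 tested genes of pyrimidine and purine synthesis had a median of -0.17, with 16 below 0. PPAT, at 3.96 ± 1.06 and 6.04 ± 0.79 FPKM, and PAICS, at 22.8 ± 2.00 and 30.0 ± 6.49 FPKM, both of the purine route, were higher without overlap. The GC and length correction took PPAT from 0.52 to 0.25 and PAICS from 0.36 to 0.16 on the log2 scale. Of the 21, 2 were higher and 1 lower without overlap, against 8.09% and 12.6% of all tested genes. RRM1, a subunit of ribonucleotide reductase, was at 151 ± 36.2 and 170 ± 23.3 FPKM with overlap, and NME2, which is uncertain because the near-identical NME1 can share its reads, at 62.1 ± 13.1 and 50.5 ± 19.4 FPKM. The lowest limma adjusted p of these 7 genes was 0.369, for PPAT, and none passed.

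The small RNAs inside the host genes add a caution on scale. The table holds 17 rows above 0 for small RNAs that lie within one of the 10 genes on its strand, 6 in NOP56, 4 in NOP58, 3 in NCL, 3 in DKC1 and 1 in ODC1. For 8 of them, 5 in NOP56 and 3 in DKC1, the values amount to exactly 1 fragment in each of the 6 libraries. SNORD57, a box C/D RNA of NOP56, is one: its 1 fragment reads as 1.13, 1.00 and 0.954 FPKM in the controls and as 1.31, 2.60 and 1.69 FPKM in DDX17 KO. The DDX17 KO libraries lie above the controls for all 8 rows, in the order of their depth, so these FPKM values carry the library size and no measured difference. SNORD110 of NOP56 is another of the 8. Other guide RNAs had counts that varied, such as SNORA51 of NOP56 with 18, 21 and 17 fragments in the controls and 11, 7 and 10 in DDX17 KO, and SNORD11 of NOP58 with 11, 10 and 19 against 13, 5 and 10. The FPKM of SNORA51 and of SNORD11 overlapped between the groups.

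**Figure D5:**
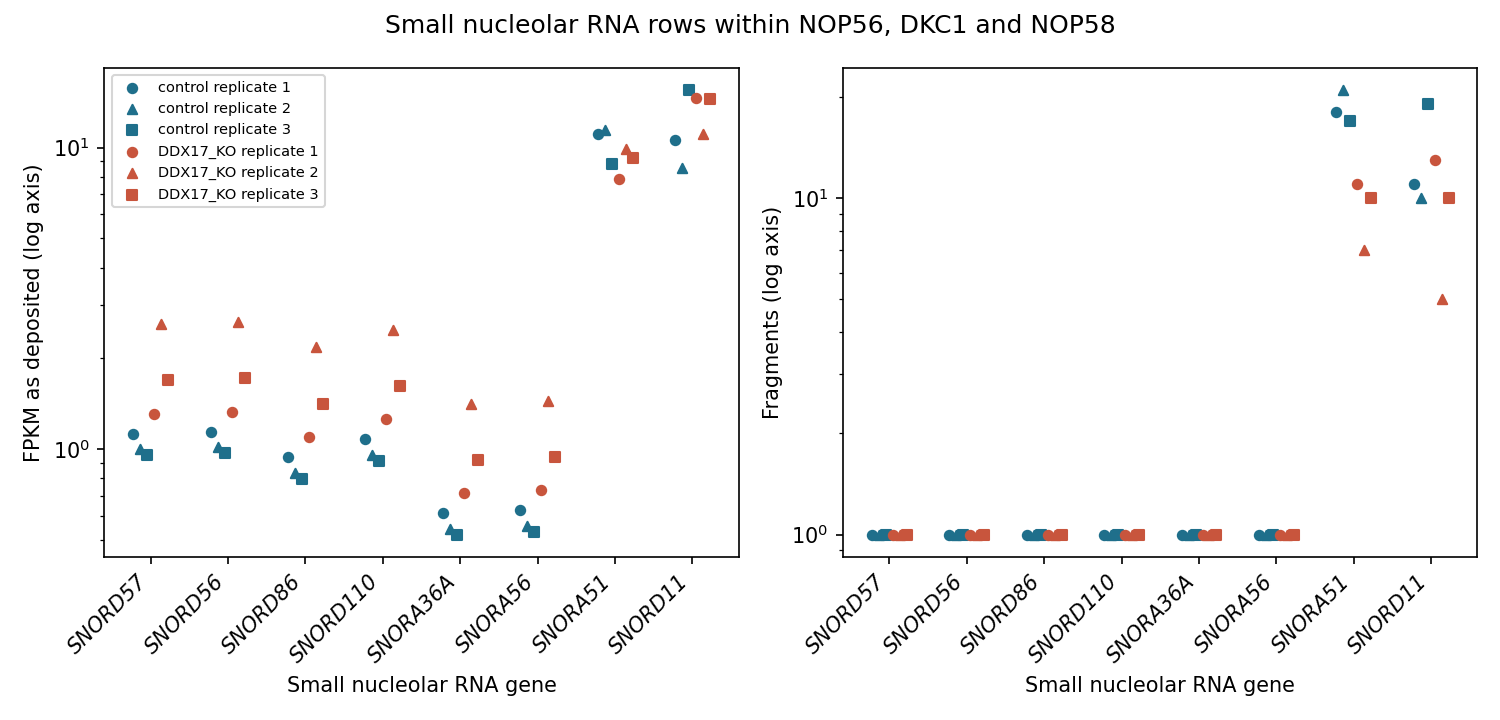
FPKM (left) and fragments (right) of 8 small nucleolar RNA rows within NOP56, DKC1 and NOP58, on log axes, with colours and symbols for group and replicate number. Rows such as SNORD57 stay at 1 fragment in every library, while their FPKM runs from 0.954 in control replicate 3 to 2.60 in DDX17 KO replicate 2, the deepest and the shallowest library.

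The genes most like MYC over the 6 libraries, by Pearson correlation of log2(FPKM + 1) among 5065 protein-coding genes averaging 5 FPKM or more, were ANAPC7 (0.955), AC120057.3 (0.949) and TSPAN14 (0.937). These are descriptions over 6 libraries, picked as the highest of many. ANAPC7, a subunit of the anaphase-promoting complex, was at 12.2, 11.9 and 10.7 FPKM in the controls and at 11.0, 12.6 and 10.2 FPKM in DDX17 KO. Within each group its libraries stood in the same order as those of MYC. AC120057.3 was listed at 0 in both libraries numbered 3, and TSPAN14 was at 1.63 and 1.38 FPKM in the libraries numbered 3 and at 6.27 to 9.21 FPKM in the other 4. None of the 9 other genes described here was among these 3.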

How the data were processed

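The deposited values are FPKM per gene in 6 libraries, 3 per group. The build hg38 and the tools HISAT2, StringTie, CASAVA 1.8 and edgeR appear, without their roles, in the submitters' processing notes. The strand setting, annotation release and read assignment were not given there or in the labels. Groups and replicate numbers came from the labels. The 10 genes and the gene lists were chosen with earlier results of these data known.

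Fragments were recovered from FPKM, gene length and library steps within 0.05 of whole numbers, using GENCODE release 29, which held 58039 of 58302 identifiers. Levels between genes were compared over merged exon length. The test was limma 3.58.1 in R 4.3.3 with a trend on log2(FPKM + 1), which understates changes of low genes, and p-values were adjusted by Benjamini-Hochberg over the 15620 genes averaging 0.5 FPKM or more, 10653 of them protein-coding. All 10 genes passed that filter. The threshold was an adjusted p of 0.05, and tests were two-sided. The exact permutation test used 20 arrangements. The script was tested on simulated data. Python 3.11.15 with pandas 2.3.3 handled the tables.

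The GC and length correction removed splines of 4 degrees of freedom, with both properties known for 99.64% of tested genes. Same-numbered libraries deviated together (correlations 0.3, 0.546 and 0.214 for numbers 1, 2 and 3), most clearly those numbered 2. The numbers were therefore taken as pairs in the replicate block alternatives only, and the main fit had no block. Control replicate 1 correlated slightly more with DDX17 KO replicate 3 (0.329). Control replicate 3 correlated nearly as much with DDX17 KO replicate 1 (0.19), so pairs 1 and 3 are not told apart. From each list the text names genes past the threshold or, where none passed, the 2 with the highest mean and the 2 with the largest change without overlap at a mean of at least 5 FPKM. Gene names beyond these are given as lists of all calls. All 187 list entries matched, 3 through a present symbol or synonym.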

Additional observations from a re-analysis of the deposited data

How the results depend on the processing

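In 21 alternatives, 2 of them added after seeing the data (limma-voom on recovered fragments, and the GC and length correction without DDX17 KO replicate 2), 0 of the 10 genes passed the adjusted threshold. The mean of at least 2 FPKM drops MYC. With the replicate block, which treats same-numbered libraries as pairs, limma called 4 genes in place of 6, and it changed no call among the 10 genes, DDX17 or the lists.

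Genes called numbered 341 with the GC and length correction without DDX17 KO replicate 2, 3 without a filter, 1376 without both libraries numbered 2, and 3 to 572 with 1 library left out. DDX17 passed with log2 fold changes of -1.11, -1.04 and -1.08 under that correction, without DDX17 KO replicate 2 and without both libraries numbered 2, and ranged from -1.76 to -1.04 with 1 library left out. The median of the 10 genes was 0.14 with the correction, with or without the block, 0.12 with median-of-ratios scaling, -0.082 without both libraries numbered 2, and -0.082 to 0.080 with 1 library left out.

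Signs turned for MYC (0.23 corrected, 0.23 corrected with the block, 0.26 corrected without DDX17 KO replicate 2, 0.018 with median-of-ratios scaling, -0.15 to 0.060 with 1 library left out) and for NPM1 (0.034 with quantile normalization). They turned for ODC1 (-0.022 corrected without DDX17 KO replicate 2, -0.088 without both libraries numbered 2, -0.17 to 0.21 with 1 left out) and NOP56 (-0.17, and -0.23 to 0.17). They turned for DKC1 (-0.0070, and -0.056 to 0.13) and POLR1B (-0.012, and -0.050 to 0.20), in the same order of settings. The cause was not tested. FBL and CAD stayed below 0 and NCL and NOP58 above 0 in all 21. Several of the 21, such as the replicate block and the run without a filter, leave the fold change unchanged by construction.

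Calls per list were 0 except in 3 settings. With the correction without DDX17 KO replicate 2, without DDX17 KO replicate 2, and without both libraries numbered 2, they were 2, 2 and 4 for the MYC network, 1, 1 and 2 for snoRNP proteins, and 1, 1 and 4 for other MYC targets. Ribosome assembly had 2 in the second and 13 in the third setting, polyamines 1 and 3, and RNA polymerase I and nucleotide synthesis 2 and 1 in the third. Depth limits MYC most, with 116 fragments in DDX17 KO replicate 2.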

Other observations

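The constant rows seen within NOP56 and DKC1 recur across the table. There, 341 rows hold exactly 1 fragment in all 6 libraries, 168 of them miRNA and 78 snoRNA genes, with a median length of 85 bases. By contrast, 2 rows hold exactly 2 fragments in all 6 libraries and 0 rows hold exactly 3. Of the 341, 314 averaged 0.5 FPKM or more and were tested, and in all 314 the DDX17 KO libraries lie above the controls in FPKM, since every DDX17 KO library is the shallower. Leaving them out lowers the share of tested genes that are higher in DDX17 KO without overlap from 8.09% to 6.21%. How the table came to hold these rows was not tested.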
